A study of Solanum lycopersicum with 24 samples.

Results

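The phytochromes, the red and far-red light receptors of plants, were followed in tomato fruit as a family of 5 genes among the 34688 of the count table. The members were PHYA (Solyc10g044670.3), PHYB1 (Solyc01g059870.4), PHYB2 (Solyc05g053410.5), PHYE (Solyc02g071260.3) and PHYF (Solyc07g045480.3). They were chosen by gene identifier, with no cut on a measured value, but with earlier results of these data known. All 5 were present and all 5 had enough reads to be among the 19620 genes tested. The deposited descriptions read phytochrome A and phytochrome B1 for PHYA and PHYB1 but only phytochrome for the other 3, whose symbols rest on their identifiers. In the RefSeq gene table of another tomato assembly, SLM_r2.1, each of the 5 symbols belongs to a single gene on the same chromosome as here.

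Phytochromes carry a linear bilin chromophore, made from heme, and switch between a red-absorbing and a far-red-absorbing form. The light-activated form acts in the nucleus against the phytochrome-interacting factors (PIFs), and against the complex of COP1 and SPA proteins that, together with DET1 and DDB1, leads to the breakdown of light-response regulators such as HY5. In Arabidopsis, phyA protein builds up in darkness and is lost in light, whereas phyB is the main light-stable sensor of red light. In tomato fruit, phytochromes are known for their effect on carotenoid accumulation and the course of ripening.

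All 24 libraries were made from tomato fruit whose genotype is written MT-Aft/atv/hp2. It joins Aft, a dominant allele linked to anthocyanin-promoting MYB factors, with atv, a defective MYB repressor, and hp2, a mutation of DET1 that strengthens light responses. Every group therefore carries the DET1 mutation and no group without it was part of the design. Epicarp, the fruit skin, and mesocarp, the flesh below it, were each sampled in 4 conditions with 3 libraries. Control fruit developed for 30 d in light. The other fruit were enclosed in aluminium foil from anthesis for 30 d and taken at 0 d, 2 d or 5 d after the foil came off. Darkness and the foil itself cannot be told apart, and neither can the days of light and the greater age of the lit fruit. The labels do not say whether replicates came from separate plants, so a p-value speaks of the spread among the libraries sequenced, which may be technical.

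The libraries held 18402751 to 23197867 assigned reads, and the rarest phytochrome had at least 262 reads in each of them. Replicates at 0 d resembled each other least, with correlations of log2 CPM (counts scaled to library size) of 0.871 to 0.937 in epicarp and 0.874 to 0.934 in mesocarp, against at least 0.952 in the other groups. Epidermis was marked by 5 cuticle genes, with 0.0396% to 0.937% of reads over the epicarp libraries and 0.00189% to 0.068% over those of mesocarp, highest in mesocarp replicate 1 at 0 d. The markers did not move together at 0 d. In epicarp replicates 1, 2 and 3, CD1 was at 5746.0, 73.6 and 0.274 TPM (defined below) and CD2 at 132.0, 105.0 and 121.0. In mesocarp replicate 1 CD2 was lowest, at 11.3 TPM against 20.7 and 15.4. The other markers were highest there. In control fruit the TPM of all 5 was higher in each epicarp library than in any mesocarp library. In bulk tissue, fewer cells of a type and less RNA per cell cannot be told apart.

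On build SL4.0, PHYA lies on the plus strand of chromosome 10 from 26380792 to 26387205 and PHYB1 on the minus strand of chromosome 1 from 62126869 to 62134376. PHYB2 lies on the minus strand of chromosome 5 from 62893022 to 62898703. PHYE lies on the plus strand of chromosome 2 from 38758222 to 38763749, and PHYF on the plus strand of chromosome 7 from 58495584 to 58506406. None of the 5 overlaps another annotated gene. Levels below are TPM, the authors' read counts divided by gene length and scaled to a fixed library total, and that length is the whole interval from start to end with introns, 5528 bases in PHYE and 10823 in PHYF. Levels of different members are thus compared per base of gene interval and not of mature transcript. Fold changes are log2 values from edgeR's quasi-likelihood test on read counts, given with their standard error (SE) and a Benjamini-Hochberg adjusted p over all 19620 genes. Between mesocarp control and mesocarp at 2 d the TMM scale used there differed from read totals alone by 0.24 on the log2 scale, so folds in that tissue run higher than ratios of TPM.

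PHYA, whose Arabidopsis counterpart senses far-red and very weak light, was the most abundant member per base in 21 of 24 libraries. The exceptions were the 3 mesocarp control libraries, in which PHYB2, a red-light sensor of the phyB type, stood first and PHYA next. PHYF was lowest in 23 libraries, and PHYE was lowest in mesocarp at 0 d replicate 3. Averaged over all libraries, PHYA stood at 58.1 TPM, above 85.7% of tested genes, and PHYF at 6.58 TPM, above 35.9%. PHYB2 at 27.6 TPM, PHYB1 at 17 TPM and PHYE at 16.3 TPM lay between them.

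**Figure D1:**
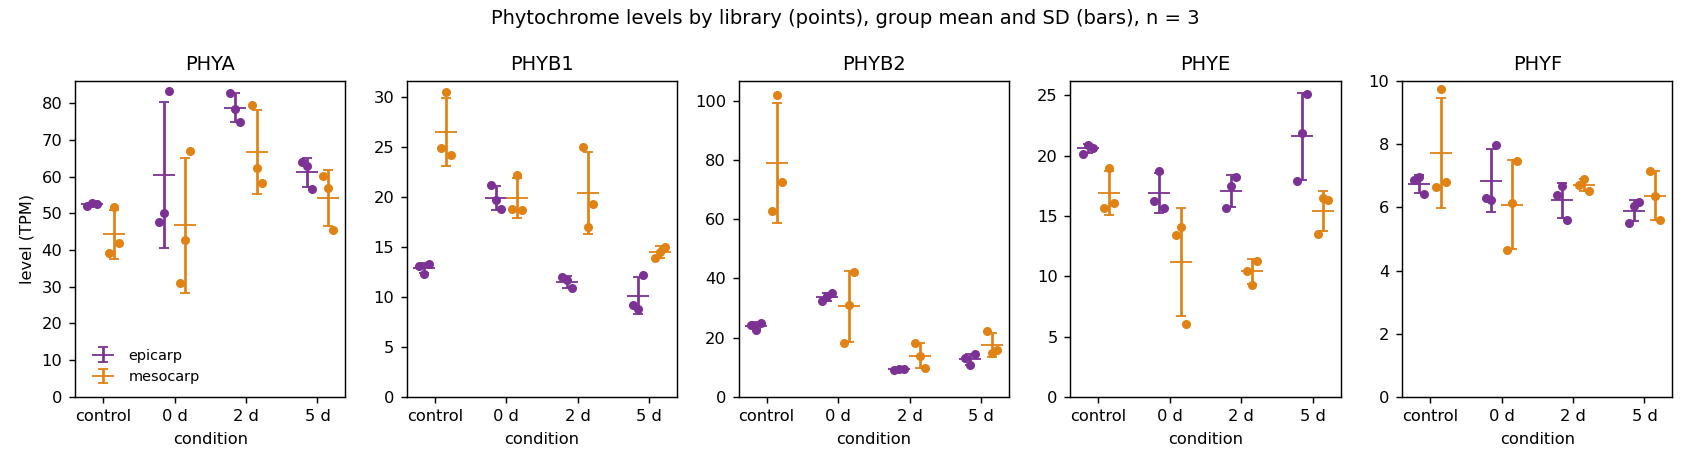
Levels of the 5 phytochromes in TPM (vertical axes, a separate scale for each gene) by condition (horizontal axes) in epicarp and mesocarp. Points are libraries, and bars give the group mean and SD of 3. PHYB2 in mesocarp control, at 62.7 to 102.0 TPM, stands above every other PHYB2 value, and the points of mesocarp at 0 d are widely spread for PHYA, PHYB2 and PHYE.

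The make-up of the family differed most between mesocarp control and the lit groups. In mesocarp control PHYB2 made up 44.9% ± 2.92 (SD, n = 3) of the summed phytochrome TPM and PHYA 25.5% ± 1.04. In mesocarp at 2 d the shares were 11.6% ± 2.04 for PHYB2 and 56.4% ± 0.912 for PHYA. PHYB2 in epicarp had shares of 20.6% ± 0.853 in the controls, 24.8% ± 2.6 after the foil, 7.52% ± 0.337 after 2 d of light and 11.4% ± 1.48 after 5 d. For PHYA the epicarp shares were, in the same order, 44.9% ± 0.606, 43.1% ± 7.57, 64.1% ± 1.5 and 55% ± 4.76. In both tissues the 2 d libraries thus had the highest shares of PHYA and the lowest of PHYB2. The summed level of the family ranged from 149.0 to 213.0 TPM in mesocarp control and from 85.9 to 161.0 TPM over the other 21 libraries, so that control mesocarp overlapped epicarp at 0 d.

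**Figure D2:**
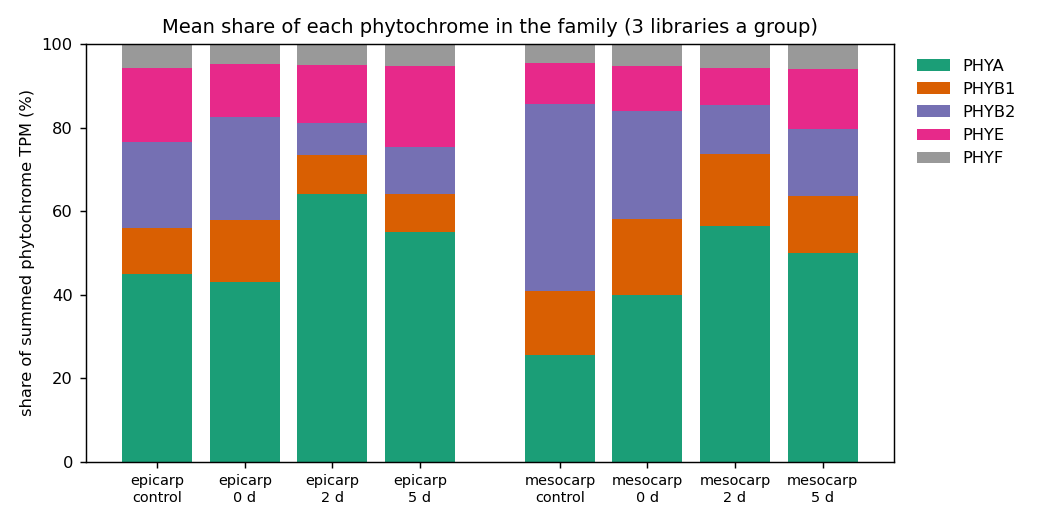
Mean share of each phytochrome in the summed phytochrome TPM (vertical axis, %) in the 8 groups of 3 libraries (horizontal axis). PHYB2 takes 44.9% in mesocarp control and 7.52% in epicarp at 2 d, and PHYA takes 25.5% and 64.1% there.

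The ratio of PHYA to PHYB2 within a library separated the conditions in mesocarp. It was 0.626, 0.508 and 0.576 in the mesocarp controls and 1.70, 1.37 and 1.59 at 0 d. After 2 d of light it was 4.41, 4.50 and 5.98, and after 5 d it was 2.72, 3.87 and 2.90. Each of the 4 mesocarp conditions held its own range without overlap. In epicarp the ratio was 2.14, 2.32 and 2.09 in control and 1.47, 1.47 and 2.38 at 0 d, where replicate 3 exceeded all controls. It was 9.21, 8.33 and 8.09 at 2 d and 4.90, 5.88 and 3.96 at 5 d, so both lit groups lay above both unlit or control groups.

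**Figure D3:**
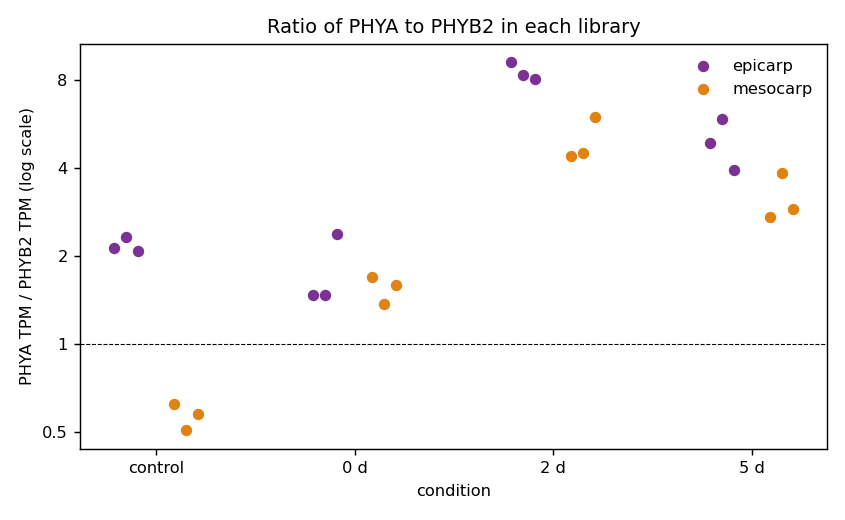
Ratio of PHYA TPM to PHYB2 TPM in each library (vertical axis, log scale) by condition (horizontal axis). Each point is 1 library and the dashed line marks equal levels. The mesocarp controls lie below the line at 0.508 to 0.626, and every other library lies above it, up to 9.21 in epicarp at 2 d.

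PHYB2 was the member that varied most between groups. Its highest group mean was 8.56 times its lowest in TPM, and on the log2 CPM scale the range of its group means was 2.83, larger than in 78.4% of tested genes. In mesocarp its levels were 62.7, 102.0 and 72.5 TPM in control, 18.2, 31.1 and 42.2 at 0 d, 18.1, 13.8 and 9.74 at 2 d, and 22.1, 14.7 and 15.7 at 5 d. The control libraries lay above all others, while those at 0 d overlapped the 5 d group. From control to 2 d PHYB2 fell by 2.19 ± 0.25 (SE) on the log2 scale, 4.56-fold (adjusted p = 4.08e-06). From control to 5 d it fell by 1.91 ± 0.25 (adjusted p = 2.96e-05). Both calls held without any single library. From 0 d to 2 d it fell by 0.93 ± 0.25 (adjusted p = 0.00906). That call was lost without mesocarp 0 d replicate 3 (adjusted p = 0.0704), without mesocarp 2 d replicate 3 (0.0501), without both libraries recovered from TPM (0.0543), and when only the groups compared entered the fit (0.131). At 0 d against control the fold was -1.26 ± 0.25, and the adjusted p of 0.00779 became 0.264 when only the mesocarp 0 d and control libraries were fitted.

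The 7 genes described as sieve element occlusion proteins, which mark phloem, had their highest summed share of reads in mesocarp control, as PHYB2 had its highest level. Mesocarp controls gave them 0.0123% to 0.0197% of reads. The later mesocarp groups gave 0.00326% to 0.013% (0 d), 0.00617% to 0.00896% (2 d) and 0.00427% to 0.00528% (5 d). Of the 5 that were tested, 1 was lower at 0 d, none at 2 d and 2 at 5 d than in mesocarp control by edgeR. Of all tested genes 1.90%, 10.2% and 7.71% were lower in these contrasts. When only the groups compared were fitted, none was lower at 0 d, 3 at 2 d and 4 at 5 d. Among the mesocarp libraries at 0 d the share was highest in replicate 1, where PHYB2 was lowest, and lowest in replicate 3, where PHYB2 was highest. Epicarp libraries gave 0.00133% to 0.00258%. In control fruit all 5 tested were lower in epicarp, against 13.6% of tested genes. Seed storage and oleosin genes, 47 in all, took 0.00801% to 0.0147% of reads in mesocarp control and at most 0.0048% elsewhere. Of these 47 genes, 29 had no read in any mesocarp control library. The part of these cells in the PHYB2 result was not tested.

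In epicarp PHYB2 was at 24.4, 22.7 and 25 TPM in control, 32.2, 34.1 and 35.0 at 0 d, 8.98, 9.43 and 9.27 at 2 d, and 13.1, 10.7 and 14.3 at 5 d. These 4 groups did not overlap, and the covered fruit at 0 d were highest. From 0 d to 2 d PHYB2 fell by 1.74 ± 0.25 on the log2 scale, 3.34-fold (adjusted p = 2.66e-05). From 0 d to 5 d it fell by 1.30 ± 0.25 (adjusted p = 0.000566). Against light-grown control it was lower at 2 d by -1.30 ± 0.25 (adjusted p = 0.00083), and these 3 calls held without any single library. At 5 d against control the fold was -0.87 ± 0.25 (adjusted p = 0.0233), which missed the threshold without epicarp control replicate 1 (0.0762) or 3 (0.0582) and without epicarp 5 d replicate 1 (0.062) or 2 (0.0994). The fold from control to 0 d, 0.44 ± 0.24, did not pass the test (adjusted p = 0.222) although the TPM ranges were apart. The summed epidermis markers were lowest in epicarp at 2 d as well, with 0.0396% to 0.0486% of reads, against 0.288% to 0.517% in control, 0.0641% to 0.937% at 0 d and 0.0695% to 0.276% at 5 d. Among them CD2 had means of 71.2 TPM at 2 d, 108.0 in control, 119.0 at 0 d and 82.0 at 5 d. CER3 was lowest at 0 d, with a mean of 29.1 TPM against 43.4 at 2 d. At 2 d, 3 of the 5 markers were lower than at 0 d, against 19% of tested genes, and 4 of 5 lower than in control, against 12.7%. When only the groups compared were fitted, 1 and 5 markers were lower. Their part in the PHYB2 result was not tested.

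PHYB1, the other receptor of the phyB type, had its highest mean in epicarp at the end of darkness and in mesocarp in light-grown control fruit. Its epicarp levels were 13.1, 12.3 and 13.3 TPM in control, 21.2, 19.7 and 18.8 at 0 d, 12, 11.7 and 10.9 at 2 d, and 9.22, 8.80 and 12.2 at 5 d. The 0 d libraries lay above all other epicarp libraries. PHYB1 rose from control to 0 d by 0.57 ± 0.14 on the log2 scale, 1.49-fold (adjusted p = 0.00757). This call was lost without epicarp control replicate 2 (adjusted p = 0.064) or epicarp 0 d replicate 2 (0.0551), and with only those groups in the fit (0.054). From 0 d to 2 d PHYB1 fell by 0.66 ± 0.14 (adjusted p = 0.00107) and from 0 d to 5 d it fell by 0.88 ± 0.14 (adjusted p = 0.000112), both also without any single library. Its fold between 5 d and control was -0.30 ± 0.14 (adjusted p = 0.151), which passed without epicarp 5 d replicate 3 (0.0483).

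In mesocarp PHYB1 was at 24.9, 30.5 and 24.2 TPM in control, 18.8, 22.2 and 18.7 at 0 d, 25, 17 and 19.3 at 2 d, and 13.9, 14.5 and 15 at 5 d. The 5 d libraries were the lowest and overlapped no other mesocarp group. From control to 5 d PHYB1 fell by 0.61 ± 0.14 on the log2 scale (adjusted p = 0.00413), which held without any single library. The fold from 2 d to 5 d, -0.55 ± 0.14, passed at an adjusted p of 0.0391 in the full fit. It did not pass with only those groups fitted (0.0988), with no filter on low counts (0.0694), by limma on log2(TPM + 1) (0.08), without both libraries recovered from TPM (0.181), or without mesocarp 2 d replicate 1 (0.315) or 3 (0.091), or without mesocarp 5 d replicate 1 (0.137), 2 (0.156) or 3 (0.0958). From control to 0 d the fold was -0.30 ± 0.14 (adjusted p = 0.214).

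PHYA was higher after 2 d of light than in light-grown control fruit in both tissues. In mesocarp it was at 39.2, 51.8 and 41.8 TPM in control, 30.9, 42.6 and 66.9 at 0 d, 79.6, 62.3 and 58.2 at 2 d, and 60.1, 56.8 and 45.5 at 5 d. The 2 d libraries lay above the controls, and those at 0 d ran from below the controls into the 2 d range. From control to 2 d PHYA rose by 0.91 ± 0.22 on the log2 scale, 1.87-fold (adjusted p = 0.00485), and this held without any single library. Between 0 d and 2 d it was higher by 0.72 ± 0.22 (adjusted p = 0.0219). That call was lost without mesocarp 0 d replicate 1 (adjusted p = 0.0896) or 2 (0.0684), without mesocarp 2 d replicate 1 (0.121), with only those groups fitted (0.159) and by limma on log2(TPM + 1) (0.0692). Between 0 d and 5 d the fold was 0.37 ± 0.22 (adjusted p = 0.265), and 0.0188 without mesocarp 0 d replicate 3. Against control the 5 d fold was 0.56 ± 0.22 (adjusted p = 0.077), which passed when only those groups were fitted (0.0368).

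In epicarp PHYA was at 52.0, 52.7 and 52.4 TPM in control, 47.5, 50.2 and 83.3 at 0 d, 82.8, 78.5 and 75 at 2 d, and 64, 63 and 56.7 at 5 d. The controls agreed closely, whereas replicate 3 at 0 d stood far above the other 2 and at the level of the 2 d group. In that library the 6 ripening genes found took 0.362% of reads, against 0.0598% and 0.069% in the other 0 d epicarp libraries, and their part in its PHYA level was not tested. From control to 2 d PHYA was higher by 0.67 ± 0.22 on the log2 scale, 1.59-fold (adjusted p = 0.0301). The call was lost by limma on log2(TPM + 1) (0.0633) and without any one of the 6 libraries. The adjusted p was 0.0674, 0.0867 and 0.082 without epicarp control replicates 1, 2 and 3 and 0.0943, 0.0791 and 0.0508 without epicarp 2 d replicates 1, 2 and 3. From 0 d to 2 d the fold was 0.53 ± 0.22 (adjusted p = 0.0643), with 0.0101 without epicarp 0 d replicate 3 and 0.0484 by DESeq2.

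PHYE, a light-stable receptor related to phyB, passed the test between conditions in neither tissue. Its epicarp levels were 20.1, 20.9 and 20.6 TPM in control, 16.2, 18.7 and 15.7 at 0 d, 15.7, 17.5 and 18.2 at 2 d, and 17.9, 21.9 and 25.1 at 5 d. In mesocarp they were 15.7, 19 and 16.1 TPM in control, 13.4, 14.1 and 6.04 at 0 d, 10.4, 9.29 and 11.3 at 2 d, and 13.5, 16.5 and 16.3 at 5 d. Replicate 3 of mesocarp at 0 d was the lowest PHYE library of the 24, and the highest of its group for PHYA and PHYB2. There the ripening genes took 0.301% of reads, against 0.216% and 0.203% in replicates 1 and 2, and each of them was highest. NOR was at 36.3 TPM against 1.02 and 5.86, and PSY1 at 301.0 against 38.7 and 56.5. Their part in the phytochrome levels of that library was not tested. By edgeR, 4 of these contrasts had an unadjusted p under 0.05. The smallest adjusted p came from 0 d against 5 d in mesocarp, with a fold of 0.61 ± 0.22 (adjusted p = 0.0548), which was 0.0359 without mesocarp 0 d replicate 1 and 0.0278 without replicate 2. The mesocarp fold between control and 2 d, -0.40 ± 0.22 (adjusted p = 0.197), passed by limma on log2(TPM + 1), whose scale makes it -0.66 (0.0173).

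PHYF had the flattest profile of the family. Its libraries lay between 4.64 and 9.75 TPM, and the range of its group means on the log2 CPM scale was 0.37, which only 3.38% of tested genes undercut and which compares with a median of 1.27 over all genes. By edgeR none of its 20 contrasts passed the test, and 1 had an unadjusted p under 0.05 (0.0406). Its largest fold between conditions was 0.34 ± 0.16, between 0 d and 2 d in mesocarp (adjusted p = 0.121), and that passed without mesocarp 0 d replicate 3 (0.0278). It had 374 to 661 reads per library, and its SE was 0.16 on the log2 scale in each contrast within a tissue.

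Counted by condition, the calls were few and came from PHYA, PHYB1 and PHYB2. From control to 0 d in epicarp, 1 member of 5 was higher (PHYB1), against 10.1% of all tested genes higher, and in mesocarp 1 was lower (PHYB2), against 1.90% lower. From 0 d to 2 d in epicarp, 2 of 5 were lower (PHYB1 and PHYB2), against 19% of tested genes lower. In mesocarp 1 was lower (PHYB2), against 10.8%, and 1 was higher (PHYA), against 13.3%. At 5 d against 0 d in epicarp, 2 were lower, against 14.2%, and in mesocarp none passed (19.2% of tested genes did, in either direction). In that mesocarp contrast the unadjusted p was under 0.05 for 3 members (PHYB1, PHYB2 and PHYE), limma on log2(TPM + 1) called PHYB1 (0.0279) and PHYB2 (0.0455), and DESeq2 called PHYB2 (0.042).

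Between 2 d and 5 d no member was called in epicarp, where 3.27% of tested genes were and no member had an unadjusted p under 0.05. PHYA passed there when only those groups were fitted (fold -0.39, adjusted p = 0.0352). In mesocarp 1 was lower (PHYB1), against 1.44%. Against the light-grown control, epicarp at 2 d had 1 member lower and 1 higher, against 12.7% and 13.4%, and at 5 d 1 lower, against 6.51%. Mesocarp at 2 d had 1 lower and 1 higher, against 10.2% and 14.5%, and at 5 d 2 lower, against 7.71%. These contrasts share libraries, so a member called in several of them was not measured independently each time. The median fold of the 5 members lay between -0.30 and 0.24 within the tissues, beside -0.09 to 0.04 for all tested genes.

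**Figure D4:**
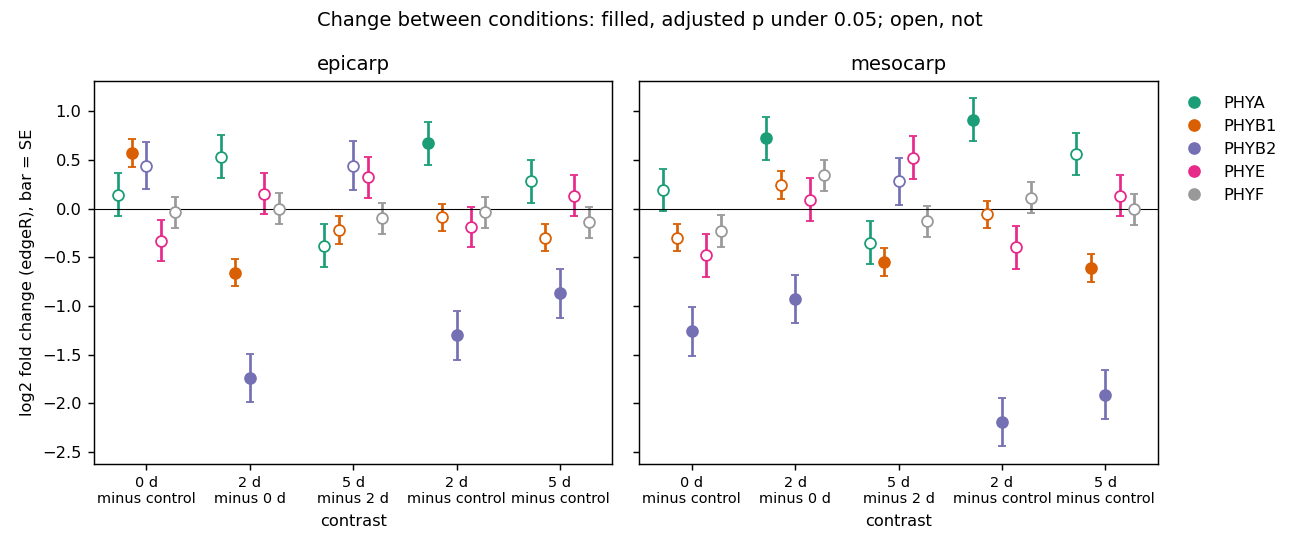
Log2 fold changes of the 5 phytochromes (vertical axis, edgeR) in 5 contrasts between conditions (horizontal axis) in epicarp and mesocarp. Bars are SE, filled points passed an adjusted p of 0.05 and open points did not. PHYB2 lies lowest in each contrast with control in mesocarp, down to -2.19 at 2 d, and PHYA highest at 0.91.

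Between tissues, both phyB-type genes were lower and PHYE higher in the skin than in the flesh when the 4 conditions were averaged. PHYB1 differed by -0.59 ± 0.07 on the log2 scale (adjusted p = 1.09e-06), PHYB2 by -0.65 ± 0.12 (adjusted p = 0.000225) and PHYE by 0.53 ± 0.11 (adjusted p = 0.0005). Thus 2 of 5 members were lower, against 24.4% of tested genes, and 1 higher, against 23.3%, and all 3 calls held without any single library of the 24. PHYA, 0.26 ± 0.11 higher in epicarp, missed the threshold (adjusted p = 0.0559). A fit that blocked on replicate number put it past the threshold (0.000668), as did fits without epicarp 0 d replicate 1 (0.0306), mesocarp control replicate 2 (0.0434), mesocarp 0 d replicate 3 (0.0041) or mesocarp 2 d replicate 1 (0.0389).

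PHYB1 was lower in epicarp in every condition but 0 d. In control fruit PHYB1 was lower in epicarp by -0.88 ± 0.14 (adjusted p = 0.000122), at 2 d by -0.91 ± 0.14 (adjusted p = 0.00016) and at 5 d by -0.57 ± 0.14 (adjusted p = 0.00766). At 0 d the group means were 19.9 TPM in both tissues and the fold was -0.01 ± 0.14 (adjusted p = 0.981). PHYB2 was lower in epicarp in control fruit by -1.55 ± 0.25 (adjusted p = 0.000131), which held without any single library. None of its tissue differences in covered fruit passed the test, with folds of 0.14 ± 0.24 at 0 d, -0.67 ± 0.25 at 2 d and -0.51 ± 0.24 at 5 d (adjusted p = 0.726, 0.0649 and 0.163). The value at 2 d passed without mesocarp 2 d replicate 3 (0.0278), with only those groups fitted (0.0321) and by DESeq2 (0.0378).

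PHYE was higher in epicarp at 2 d by 0.64 ± 0.22 (adjusted p = 0.0435). That call was lost with RLE size factors (0.0514) and without any one of the 6 libraries: the adjusted p was 0.0719, 0.129 and 0.126 without epicarp 2 d replicates 1, 2 and 3 and 0.0945, 0.134 and 0.0691 without mesocarp 2 d replicates 1, 2 and 3. At 0 d same-numbered epicarp and mesocarp libraries deviated together from their group means. With the replicate number as a block, PHYE was higher in epicarp at 0 d by 0.66 (adjusted p = 0.0106, and 0.0653 without the block) and PHYA by 0.38 (adjusted p = 0.0169, and 0.28 without the block). Leaving out mesocarp 0 d replicate 3 also brought PHYA past the threshold there (0.0289), as did leaving out replicate 1 (0.0442) or 2 (0.0391) for PHYE. Counted over the family in the unblocked fit, epicarp had 2 members lower in control, against 13.6% of tested genes, none called at 0 d, against 18.3% in either direction, 1 lower and 1 higher at 2 d, against 10.3% and 8.20%, and 1 lower at 5 d, against 10.4%. At 0 d 1 member had an unadjusted p under 0.05 (PHYE), and limma on log2(TPM + 1) called it (0.0403).

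In the fit of all 8 groups, the response to the foil differed between skin and flesh for both phyB-type genes. The interaction, the epicarp fold minus the mesocarp fold, was 0.88 ± 0.20 for PHYB1 (adjusted p = 0.0209) and 1.70 ± 0.34 for PHYB2 (adjusted p = 0.0128) in the contrast of 0 d with control. These 2 of 5 members were higher, against 0.744% of tested genes. For the contrast of 2 d with 0 d the interaction was -0.90 ± 0.20 for PHYB1 (adjusted p = 0.0261), 1 member lower, against 0.576% of tested genes. For PHYB2 it was -0.81 ± 0.34 there and did not pass (adjusted p = 0.281). For the contrast of 5 d with 0 d no member was called, against 0.194% of tested genes, 1 member had an unadjusted p under 0.05 (PHYB1, 0.00956) and no alternative called any. When only the 4 groups concerned were fitted, none of the 3 interactions passed (adjusted p = 0.0877 for PHYB1 and 0.0881 for PHYB2 at 0 d, and 0.156 for PHYB1 at 2 d).

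The order of the groups within each member, from the highest mean TPM, differed between members. For PHYB2 it began with mesocarp control at 79.0, which stood clear of epicarp at 0 d at 33.8, and ended with epicarp at 5 d at 12.7 and epicarp at 2 d at 9.23. Epicarp at 0 d, mesocarp at 0 d (30.5) and epicarp control (24) overlapped in sequence, as did mesocarp at 5 d (17.5), mesocarp at 2 d (13.9) and epicarp at 5 d. For PHYB1 the first 4 groups, mesocarp control (26.5), mesocarp at 2 d (20.4), epicarp at 0 d (19.9) and mesocarp at 0 d (19.9), overlapped from each to the next. Mesocarp at 5 d (14.5), epicarp control (12.9) and epicarp at 2 d (11.5) followed, each apart from its neighbour above, and epicarp at 5 d (10.1) overlapped the last. For PHYA, from epicarp at 2 d (78.8) to mesocarp control (44.3), and for PHYF, from mesocarp control (7.73) to epicarp at 5 d (5.90), every pair of neighbours overlapped. For PHYE, epicarp at 5 d (21.6) and epicarp control (20.6) overlapped each other. From epicarp at 2 d (17.1) down to mesocarp at 2 d (10.4) each group overlapped the next.

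The enzymes that make the chromophore were next examined, since the receptor needs it. YG-2 (Solyc12g009470.2), the heme oxygenase of the pathway, was at 31.8, 18.6 and 25.2 TPM in epicarp at 0 d and 49.1, 50.1 and 51.4 at 2 d. AUREA (Solyc01g008930.4), phytochromobilin synthase, was at 4.88, 5.10 and 2.15 TPM in epicarp at 0 d and 8.34, 7.74 and 7.66 at 2 d. For each gene the groups did not overlap. Both genes rose, YG-2 by 1.13 ± 0.20 (adjusted p = 0.000229) and AUREA by 1.08 ± 0.25 on the log2 scale (adjusted p = 0.002). In mesocarp YG-2 was higher at 2 d than at 0 d by 0.76 ± 0.20 (adjusted p = 0.00897) and AUREA by 1.38 ± 0.25 (adjusted p = 0.000399). Of 7 genes listed by identifier or by the words heme oxygenase or phytochromobilin, 6 were tested. Against 0 d, 5 of these 6 were higher at 2 d in epicarp, where 17.6% of tested genes were higher, and 2 were higher in mesocarp, where 13.3% were. The median folds were 1.11 and 0.62, beside -0.07 and -0.05 for all tested genes. Besides YG-2 and AUREA, those called in epicarp were Solyc10g075080.1 (3.23 ± 1.14, adjusted p = 0.037), Solyc09g064510.3 (1.28 ± 0.33, 0.00469) and Solyc04g079290.3 (0.55 ± 0.21, 0.0489). At 0 d in epicarp Solyc10g075080.1 was at only 2.57, 0.386 and 0.428 TPM. When only the groups compared were fitted, 3 were called in epicarp, YG-2 (0.00856), Solyc09g064510.3 (0.0206) and Solyc10g075080.1 (0.0355). AUREA was at 0.0686 there. In mesocarp 1 was called, AUREA (0.00358), and YG-2 was at 0.0712. The deposited descriptions of 2 of the 6, Solyc09g064510.3 among them, name only a heme oxygenase-like fold with a HAD-like domain, which is not a role in chromophore synthesis.

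The PIFs, transcription factors that active phytochromes oppose, were listed by identifier, and the deposited descriptions name them only as basic helix-loop-helix proteins. Of 7 genes found, 4 had enough reads to be tested. After 2 d of light, 2 of 4 were lower than at 0 d in epicarp and 3 of 4 in mesocarp, and none was higher. Of all tested genes 19% and 10.8% were lower. The median folds of the 4 were -0.38 and -0.65. The gene listed as PIF4 (Solyc07g043580.4) was at 38.6, 31.7 and 31.4 TPM in epicarp at 0 d and 18.4, 19 and 19.4 at 2 d, with no overlap, and fell by 0.71 ± 0.13 on the log2 scale (adjusted p = 0.000241). In mesocarp it fell by 0.53 ± 0.13 (adjusted p = 0.00481). The gene listed as PIF1b (Solyc06g008030.3) fell by 1.00 ± 0.34 in epicarp (adjusted p = 0.0277), and in mesocarp it fell by 1.87 ± 0.35 (adjusted p = 0.000755). That listed as PIF3 (Solyc01g102300.3) fell by 0.77 ± 0.19 in mesocarp (adjusted p = 0.00581). With only the groups compared in the fit, PIF4 in epicarp (0.0138) and PIF1b in mesocarp (0.0204) remained called, and PIF1b in epicarp (0.106), PIF3 (0.0782) and PIF4 in mesocarp (0.0646) did not. The gene listed as PIF1a (Solyc09g063010.5) went the other way without a call, by 0.36 ± 0.27 in epicarp and 0.63 ± 0.27 in mesocarp (adjusted p = 0.306 and 0.0992). Against mesocarp control it was higher at 2 d by 0.90 ± 0.27 (edgeR adjusted p = 0.0202).

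Among the 13 genes listed downstream of the receptors, 10 were tested. Against 0 d, 4 were higher at 2 d in each tissue and 1 was lower in epicarp. Of all tested genes 17.6% were higher in epicarp and 13.3% in mesocarp, and 19% were lower in epicarp. The median folds of the 10 were 0.0 and 0.33. Both genes described as SPA1-RELATED 3, partners of COP1, rose in mesocarp, Solyc07g063120.4 by 1.31 ± 0.13 (adjusted p = 7.41e-07) and Solyc12g013840.3 by 1.21 ± 0.20 (adjusted p = 0.000181). In epicarp they rose by 0.99 ± 0.13 (adjusted p = 9.52e-06) and 0.81 ± 0.20 (adjusted p = 0.00329). The gene listed as COP1-like (Solyc11g011980.3), deposited as a WD40 repeat protein, was at 3.61, 2.58 and 0.275 TPM in epicarp at 0 d and 17.9, 16.3 and 15.5 at 2 d, and rose by 3.04 ± 0.58 (adjusted p = 0.000441). HY5 (Solyc08g061130.3), a leucine zipper activator of light responses, was at 11.3, 74.2 and 150.0 TPM in epicarp at 0 d and 15.9, 12.6 and 9.42 at 2 d. These groups overlapped through replicate 1, and the fold of -2.48 ± 0.66 (adjusted p = 0.00645) was not called when only those groups were fitted (0.0736). The value of 150.0 TPM came from replicate 3, the library in which the ripening genes took 0.362% of reads. They took 0.0598% in replicate 1 and 0.069% in replicate 2, where HY5 was at 74.2 TPM. In mesocarp at 0 d HY5 was at 6.33, 46.3 and 46.8 TPM, with ripening shares of 0.216%, 0.203% and 0.301%. The part of ripening in the HY5 levels was not tested. DET1 (Solyc01g056340.4), the gene mutated in hp2, had group means between 2.81 and 3.68 TPM.

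The cryptochrome list held the blue-light receptors CRY1a, CRY1b and CRY2 and a gene listed as CRY3, and all 4 were tested. At 2 d against 0 d, CRY3 (Solyc08g074270.4), deposited as photolyase/cryptochrome dash, rose by 2.91 ± 0.42 in epicarp (adjusted p = 2.75e-05) and 3.04 ± 0.42 in mesocarp (adjusted p = 3.38e-05). CRY1b (Solyc12g057040.2) rose by 1.45 ± 0.26 (adjusted p = 0.000214) and 1.12 ± 0.25 (adjusted p = 0.00324). CRY1a and CRY2 did not pass in that contrast in either tissue. Thus 2 of 4 were higher in each tissue, against 17.6% of tested genes in epicarp and 13.3% in mesocarp. Of 100 genes described with the words FAR1, FHY3 or far-red elongated, a family of transcription factors whose founding members act in Arabidopsis phyA signalling, 25 were tested. In the same contrast 6 of them were higher and 1 lower in epicarp, and 5 were higher in mesocarp, beside 17.6% and 19% of all tested genes in epicarp and 13.3% in mesocarp. When only the groups compared were fitted, 5 and 1 were higher. The tested gene described as a phytochrome A-associated F-box protein (Solyc09g075080.3) was not called between conditions, and was lower in epicarp in all 4, with folds of -0.66 to -1.04. At 0 d that call was lost when only those groups were fitted (0.102).

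**Figure D5:**
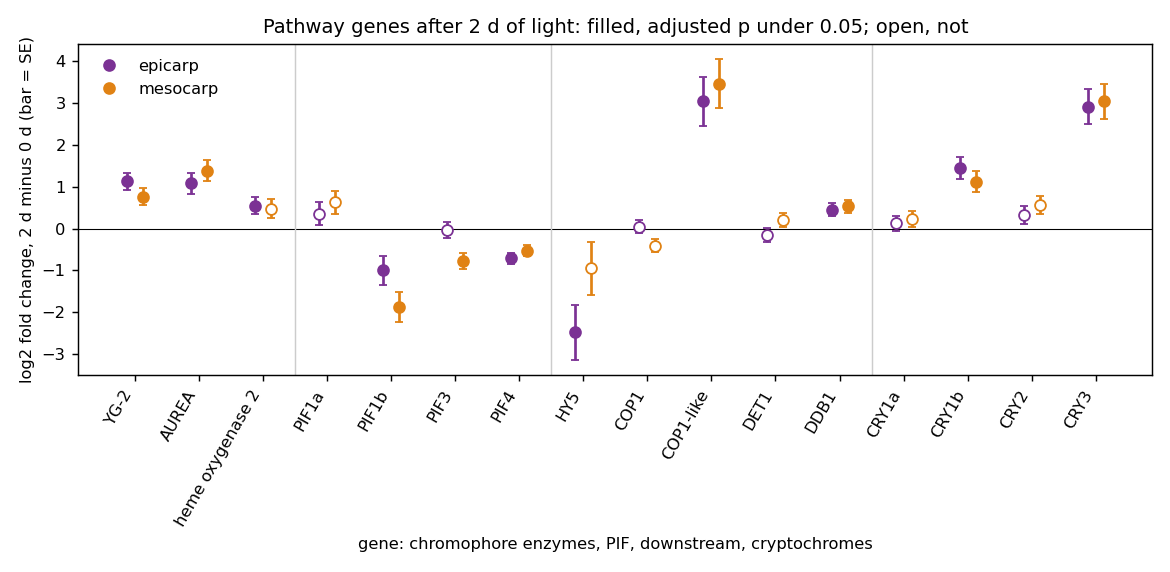
Log2 fold changes between 0 d and 2 d of light (vertical axis, bars are SE) of 16 genes picked by hand from the pathway lists (horizontal axis) in epicarp and mesocarp, with names as listed by identifier. Other called genes of these lists are not drawn. Filled points passed an adjusted p of 0.05 and open points did not. YG-2, AUREA, COP1-like, DDB1, CRY1b and CRY3 are filled above 0 in both tissues, and PIF1b and PIF4 are filled below 0 in both.

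The genes with the most similar profile to each member were taken by Pearson r of log2 CPM over the 24 libraries, among 13901 tested genes with at least 5 CPM. These libraries share groups and depth, and r is given as a description. For PHYA the nearest were Solyc06g084390.3, described as an ER auxin-binding protein (0.93), Solyc10g081900.3, digalactosyldiacylglycerol synthase 1 (0.92), and Solyc02g070580.1, a sterol 22-desaturase (0.91). For PHYB2 they were Solyc07g008900.4, a subtilisin-like protease (0.91), Solyc01g094640.4 (0.90) and Solyc01g094940.4, a protein kinase (0.89). For PHYB1 they were Solyc05g054090.3 (0.91), Solyc01g111760.4, a vacuolar ATP synthase subunit B (0.89), and Solyc08g078670.2, an aspartyl protease (0.89). PHYE had weaker neighbours (0.86 to 0.88), and PHYF the weakest (0.71 to 0.74). By r over the 8 group means none of these neighbours stayed among the 3 nearest to its member. Their ranks by that measure ran from 7 to 367, so the neighbours depend on the measure. Between members, r over the 24 libraries was 0.64 for PHYB1 with PHYB2 and -0.59 for PHYA with PHYB2, with 0.77 and -0.72 over the 12 epicarp libraries and 0.44 and -0.45 over the 12 of mesocarp.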

How the data were processed

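Read counts for each gene, with its position and length on build SL4.0, stand in the authors' deposited count table, per the file headers. Their deposited TPM table holds the same reads divided by gene length and scaled per library. Trimmomatic 0.39, featureCounts and DESeq2 are named in the submitters' processing notes. No aligner or strand setting is named in the sources used here. A column name for mesocarp at 2 d replicate 3 heads 2 count columns and none is named for mesocarp at 5 d replicate 3, so these 2 columns were left out. For both libraries whole reads were derived from the TPM column, where 100.0% of values came out whole within 0.01 reads. The same recovery gave the deposited counts of every gene in the other 22 libraries.

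Counts were fitted in R 4.3.3 with edgeR 4.0.16 (filterByExpr by group, TMM, a mean for each of 8 groups, robust quasi-likelihood fit) and p-values were adjusted by Benjamini-Hochberg over 19620 genes in each contrast at a threshold of 0.05. The SE was taken as the log2 fold over the root of the F statistic. The fit was also run on simulated counts that had the same dispersion, 0.119, for every gene and group. That setting lacks the wider spread of the 0 d replicates, so it cannot speak for calls that involve 0 d. Alternatives were RLE size factors, no filter, DESeq2 1.42.0, limma 3.58.1 on log2(TPM + 1), only the groups compared, a replicate block, leaving out the recovered libraries, and leaving out each library. Leaving out all 0 d libraries was added after seeing the data. Descriptive values used pandas 2.3.3 and numpy 2.4.6 under Python 3.11.15, and plots matplotlib 3.10.9.

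Same-numbered epicarp and mesocarp libraries deviated together at 0 d (correlations of 0.385 to 0.644), 2 d (0.124 to 0.171) and 5 d (0.194 to 0.305), and these contrasts count as paired, from the data and not the labels. In the others at least 1 correlation was below 0.1.

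Named genes are the 5 members in every contrast, up to 4 called genes of a pathway list with the largest change, the 3 genes most correlated with each member, and marker genes. DET1, CRY1a, CRY2 and PIF1a were named after their values were seen. Members and lists were chosen with earlier results of these data known. No sequences of these genes were used here.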

Additional observations from a re-analysis of the deposited data

Results flagged for a closer look

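In the fit of all 8 groups, the response of both phyB-type genes to the foil differed between the tissues by a test of the difference itself. For PHYB2 the interaction of tissue with 0 d against control was 1.70 ± 0.34 (log2, SE, edgeR adjusted p = 0.0128): epicarp went from a mean of 24 to 33.8 TPM and mesocarp from 79.0 to 30.5 TPM. It passed without any single library, at adjusted p values from 0.00328 to 0.0418, but not when only those 4 groups were fitted (0.0881).

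For PHYB1 the same interaction was 0.88 ± 0.20 (adjusted p = 0.0209), with epicarp means of 12.9 and 19.9 TPM and mesocarp means of 26.5 and 19.9 TPM. It was lost without epicarp control replicate 1 (0.0545), 2 (0.0873) or 3 (0.0501), epicarp 0 d replicate 2 (0.0745), mesocarp control replicate 2 (0.0864) and mesocarp 0 d replicate 1 (0.0618) or 3 (0.0588). Fitting only the groups concerned also lost it (0.0877).

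For PHYB1 the interaction of tissue with 2 d against 0 d was -0.90 ± 0.20 (adjusted p = 0.0261), with means falling from 19.9 to 11.5 TPM in epicarp and standing at 19.9 and 20.4 TPM in mesocarp. It was lost without epicarp 0 d replicate 2 (0.0965), epicarp 2 d replicate 1 (0.064), 2 (0.0807) or 3 (0.0994), mesocarp 0 d replicate 1 (0.0562) or 3 (0.0561) and mesocarp 2 d replicate 1 (0.129) or 3 (0.0637). Fitting only the groups concerned also lost it (0.156).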

How the results depend on the processing

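Of 61 phytochrome folds followed under the alternatives (the 27 called and those of at least 0.25 on the log2 scale), none changed sign, and 18 of the 27 calls held without any single library. The number of the 5 members called moved by over 1.5 times in the following cases. With only the groups compared in the fit, the number called fell from 1 to 0 for 0 d against control in epicarp and in mesocarp, from 2 to 0 for 2 d against 0 d in mesocarp, from 1 to 0 for 5 d against 2 d in mesocarp, and from 2 to 0 and 1 to 0 for the interactions at 0 d and 2 d, and it went from 0 to 1 for 5 d against 2 d in epicarp and from 2 to 4 between control tissues. By limma on log2(TPM + 1) it was 1 for 2 d against control in epicarp and for 2 d against 0 d in mesocarp, 2 for 5 d against 0 d, 0 for 5 d against 2 d and 4 for 2 d against control in mesocarp, and 1 between tissues at 0 d. DESeq2 gave 1 for 5 d against 0 d in mesocarp, and RLE size factors 1 between tissues at 2 d. No filter on low counts gave 0 for 5 d against 2 d in mesocarp and 0 for the interaction at 2 d. Without both recovered libraries the number was 1 for 2 d against 0 d and 0 for 5 d against 2 d in mesocarp, and 0 for the interaction at 2 d. Without all 0 d libraries, an alternative chosen after seeing the data, it was 2 for 5 d against 2 d in mesocarp, 4 between control tissues and 2 between tissues at 5 d. Smaller moves were 3 calls in place of 2 for 2 d against 0 d in epicarp (DESeq2 added PHYA), for 5 d against control in mesocarp (PHYA, with only the groups compared and without the 0 d libraries), for 2 d against control in mesocarp (PHYE, without the 0 d libraries) and between tissues at 2 d (PHYB2, in all 3 of these fits). Without the recovered libraries PHYB2 was called and PHYE was not between tissues at 2 d. The cause of these moves was not tested.

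With the replicate number as a block, the paired contrast of tissues at 0 d had 2 calls where none stood without it. In contrasts whose samples share only a number, the replicate block gave 1 call for 2 d against control in epicarp. It gave 0 for 5 d against control in epicarp and 0 for 5 d against 2 d in mesocarp. Between control tissues it added PHYA (0.00918). The mean over conditions averages that contrast with the paired ones at 0 d, 2 d and 5 d, and the block added PHYA there (0.000668). It changed no other call. Leaving out 1 library at a time gave 0 to 1 calls for 0 d against control, 1 for 2 d against control and 0 to 2 for 5 d against control in epicarp. In mesocarp it gave 1 to 2 for 2 d against 0 d, 0 to 2 for 5 d against 0 d and 0 to 1 for 5 d against 2 d. Between tissues it gave 0 to 1 at 0 d and 1 to 2 at 2 d, and for the interactions 1 to 2 at 0 d and 0 to 1 at 2 d.

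Over all genes, the count called at 0 d against control in mesocarp was 844 and ranged from 6 to 1742 over the alternatives, and that between tissues at 0 d was 3600 and ranged from 37 to 5316, with the low ends from fitting only the groups compared. For the interactions it was 503 (58 to 1451) for the 0 d contrast, 244 (47 to 930) for that of 2 d, and for that of 5 d 38 (1 to 280). In epicarp it was 3755 (898 to 4598) for 0 d, 5112 (4629 to 8461) for 2 d and 2930 (2542 to 5406) for 5 d against control, 5590 (2790 to 6291) for 5 d against 0 d and 642 (501 to 2406) for 5 d against 2 d. In mesocarp it was 4858 (3618 to 7476) for 2 d and 3987 (2657 to 6251) for 5 d against control, 4719 (2146 to 5660) for 2 d and 3773 (802 to 4646) for 5 d against 0 d, and 492 (121 to 1693) for 5 d against 2 d. Between tissues it was 3638 (2537 to 5750) at 2 d and 3432 (2515 to 5465) at 5 d. TPM scaled by coding length was not run, since no coding lengths were used here, so the order of members by level rests on gene intervals with introns. Each group had 3 libraries, and the fit of all groups gives every group the same dispersion although the 0 d replicates were spread most.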
